A study of Mus musculus with 14 samples.

Results

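A set of 10 genes stands higher in dark zone (DZ) than in light zone (LZ) germinal centre B cells of immunized mice: Pafah1b3, Myl4, Rgcc, Lipc, Smco4, Scn11a, Gcsam, Cmpk1, Guca1b and H1fx. The 10 genes were chosen by symbol, for their zone difference in these same libraries, out of 9969 genes in the deposited table of unique molecular identifier (UMI) counts, where a UMI tags 1 captured transcript. All 10 passed the filter on low counts that left 7999 genes for testing. Because the zone values picked the genes, those values are a description: counts of zone calls are printed beside the share over all genes and support nothing.

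In a germinal centre, B cells proliferate in the dark zone, where their antibody genes are mutated, then move to the light zone, where they take up antigen and compete for help from follicular helper T cells. The zones are usually told apart by the chemokine receptor Cxcr4, high in the dark zone, and by the activation molecules Cd83 and Cd86, high in the light zone. Syk is the tyrosine kinase that binds the phosphorylated antigen receptor, and Gcsam, 1 of the 10 genes, encodes an adaptor that binds Syk in human B cells. The other 9 genes belong to different families, and several are named for roles in muscle, liver, sensory neurons or retina.

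The 14 libraries hold sorted germinal centre B cells of C57BL/6 mice, made by bulk RNA sequencing with a form of MARS-seq, an end-counting method that tags transcripts with UMIs. They form 4 groups: SykY317F DZ (3 libraries), SykY317F LZ (3), WT DZ (4) and WT LZ (4). SykY317F cells carry a Syk protein with phenylalanine in place of a tyrosine between its paired SH2 domains and its kinase domain, and WT cells carry the unaltered kinase. Both genotypes came from mixed chimeras, with 50% of cells of each genotype, so every host held cells of both; the hosts had received the hapten-carrier antigen NP-KLH and their popliteal lymph nodes were taken at day 14. Whether each library is a mouse or a pool, how the zones were gated, and the age of the mice are not in the labels, so p-values measure the spread between these libraries, which may be technical.

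Depth differed by group. Libraries held 381954 to 1413310 UMIs in SykY317F DZ, 149641 to 379125 in SykY317F LZ, 747948 to 1767898 in WT DZ and 499443 to 1600902 in WT LZ. Per 100 reads, 9.37 to 15.8 UMIs were counted in SykY317F LZ and 15.7 in replicate 4 of SykY317F DZ, while the other 10 libraries had 33.5 to 53.2. Levels are CPM, UMI counts scaled by TMM to a common library total; 3 UMIs equal 8.95 to 18.8 CPM in SykY317F LZ and 1.73 to 8.29 CPM elsewhere. The B cell markers summed to 6833 to 7423 CPM in SykY317F DZ, 6799 to 7462 in SykY317F LZ, 6836 to 9894 in WT DZ and 5455 to 6607 in WT LZ, all 5 of them being in the table. Of 9 T cell markers 6 were in the table, and these summed to 77.0 to 177 CPM in SykY317F DZ, 47.8 to 124 in SykY317F LZ, 18.6 to 50.7 in WT DZ and 55.4 to 142 in WT LZ. SykY317F DZ replicate 2 was the lowest of its 3 libraries for 10 of the 10 genes. The sum of the 10 was also lowest in replicate 2 in SykY317F LZ (570.1 CPM) and WT LZ (565 CPM). It was not in WT DZ (2014 CPM, against 1992 CPM in replicate 4). In SykY317F DZ replicate 2, 7 markers of naive or memory B cells summed to 2031 CPM. The other SykY317F DZ libraries had 1322 and 1169 CPM, and WT DZ had 545 to 1024 CPM. Replicate 2 also had the highest sum of these markers in SykY317F LZ (2258 CPM), WT DZ (1024 CPM) and WT LZ (1945 CPM). The part of these cells in the results was not tested, and in bulk libraries fewer cells that express a gene and less RNA per cell cannot be told apart.

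The start regions of the genes are shown first, since genes that move together may be compared for shared letters there. RefSeq promoter windows (GRCm38.p6, 250 bases before to 50 after each start) matched 8 of the 10 genes, in 10 windows, with H1fx listed as H1f10. 4 windows follow, each 5′ to 3′ on the gene's own strand: Lipc (chr9:70952172-70952471, minus), the window with the most matches; Smco4 (chr9:15493182-15493481, plus), whose level followed that of Lipc most closely within groups; Myl4 (chr11:104550413-104550712, plus), which shares 1 element with Lipc; and Scn11a (chr9:119825407-119825706, minus), the gene nearest to absent in the light zone. Capitals mark matches, on either strand, to the elements searched.
Lipc: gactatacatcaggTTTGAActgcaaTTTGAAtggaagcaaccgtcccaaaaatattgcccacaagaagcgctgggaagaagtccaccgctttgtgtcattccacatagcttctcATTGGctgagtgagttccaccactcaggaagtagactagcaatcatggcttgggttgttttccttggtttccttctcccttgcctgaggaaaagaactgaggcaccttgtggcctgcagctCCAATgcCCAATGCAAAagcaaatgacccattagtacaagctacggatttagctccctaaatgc
Smco4: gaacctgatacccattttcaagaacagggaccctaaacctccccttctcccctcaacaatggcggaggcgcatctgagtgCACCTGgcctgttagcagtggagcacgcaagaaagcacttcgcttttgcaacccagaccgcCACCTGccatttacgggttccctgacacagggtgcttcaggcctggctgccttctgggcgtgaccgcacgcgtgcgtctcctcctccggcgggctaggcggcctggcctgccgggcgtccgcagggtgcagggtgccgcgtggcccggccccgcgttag
Myl4: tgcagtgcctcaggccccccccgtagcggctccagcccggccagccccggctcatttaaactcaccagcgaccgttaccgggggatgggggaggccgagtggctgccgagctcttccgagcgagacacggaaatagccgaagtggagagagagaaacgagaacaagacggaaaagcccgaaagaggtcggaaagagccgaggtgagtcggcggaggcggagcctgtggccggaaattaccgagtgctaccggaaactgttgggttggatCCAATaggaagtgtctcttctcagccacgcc
Scn11a: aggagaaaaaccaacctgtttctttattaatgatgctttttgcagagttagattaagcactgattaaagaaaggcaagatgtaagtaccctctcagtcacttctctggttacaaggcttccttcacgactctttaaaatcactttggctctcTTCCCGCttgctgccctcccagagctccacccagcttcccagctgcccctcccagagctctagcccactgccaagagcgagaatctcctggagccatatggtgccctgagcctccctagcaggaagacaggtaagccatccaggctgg

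7 elements were searched by exact letters on both strands: the octamer core ATGCAAA, the forkhead core TGTTTAC, the E-box CAGGTG, the CCAAT box, the cell cycle element TTTGAA, the E2F core TTCCCGC and the TATA box TATAAA. The octamer core is shorter than the full octamer. In Lipc the capitals mark 2 cell cycle elements, CCAAT boxes on either strand and 1 octamer core, which overlaps the CCAAT box beside it. Smco4 carried the E-box in both of its windows, Myl4 a CCAAT box and Scn11a an E2F core. CCAAT was present in 37.4% of all 32851 windows, the E-box in 20.2%, the cell cycle element in 17.9%, the octamer core in 4.63% and the E2F core in 4.60%. The forkhead core (3.65% of all windows) and the TATA box (13.6%) were in none of the 10 windows, and no element was found in more than 2 of the 8 genes. Their GC content ran from 47.0% to 77.7%, against a median of 52.7% over all windows. A match describes letters only and is not a site of binding.

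Pafah1b3 (chromosome 7, 25295049 to 25297986, GRCm38, minus strand) encodes a catalytic subunit of the intracellular hydrolase that inactivates platelet-activating factor. It measured 584, 305 and 603 CPM in the SykY317F DZ libraries (replicates 1, 2 and 4), against 188, 135.5 and 144 CPM in SykY317F LZ. WT DZ libraries held 699, 635, 542 and 1068 CPM (replicates 2, 3, 4 and 5), against 155, 156, 242 and 161 CPM in WT LZ (replicates 1, 2, 3 and 5). The lowest DZ library lay above the highest LZ library in both genotypes. Zone differences (log2, DZ over LZ) were 1.65 ± 0.33 (SE) in SykY317F and 2.05 ± 0.27 in WT. Of the other subunits of the enzyme, Pafah1b1 differed by 0.85 ± 0.35 and Pafah1b2 by 0.54 ± 0.29 averaged over genotypes, and neither passed in edgeR (adjusted p = 0.269 and 0.401).

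Myl4 (chromosome 11, 104550663 to 104595753, plus strand) encodes a light chain of atrial and embryonic muscle myosin. Its levels were 299.8, 175 and 304 CPM in SykY317F DZ, against 74.6, 79.0 and 87.8 CPM in SykY317F LZ. In WT DZ they were 239.5, 295, 242 and 417 CPM, against 107.5, 83.0, 136 and 81.4 CPM in WT LZ. No DZ library overlapped an LZ library, and the zone difference was 1.69 ± 0.33 in SykY317F and 1.57 ± 0.25 in WT. Of non-muscle myosin genes, Myl6 (-0.59 ± 0.46), Myl12a (-0.05 ± 0.19), Myl12b (-0.45 ± 0.16) and Myh9 (-0.06 ± 0.18) had averaged zone differences below 0, and none passed. The annotated span of Cdc27 (104502745 to 104550620) stops 43 bases short of Myl4 and covers part of the Myl4 promoter window. Cdc27 differed by -0.05 ± 0.56.

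Rgcc (chromosome 14, 79288756 to 79301645, minus strand), a regulator of the cell cycle first described as a gene induced by complement, binds the mitotic kinase Cdk1. It measured 119.8, 65.9 and 144 CPM in SykY317F DZ, against 29.9 and 33.9 CPM and 0 UMIs in SykY317F LZ. WT DZ held 126, 149.9, 115 and 163 CPM, against 31.8, 27.7, 40.3 and 32.9 CPM in WT LZ. The zones did not overlap in either genotype, with differences of 2.21 ± 0.48 in SykY317F, where the 3 LZ libraries held 16 UMIs in all, and 2.08 ± 0.33 in WT. Ccnb1 (0.84 ± 0.33), the cyclin partner of Cdk1, Plk1 (0.61 ± 0.29), a mitotic kinase, and the receptor gene Tgfbr1 (0.85 ± 0.21, adjusted p = 0.0524 in edgeR) were on the same side of 0 and did not pass.

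Lipc (chromosome 9, 70798128 to 70952226, minus strand) encodes hepatic lipase, a secreted enzyme that cleaves lipids of circulating lipoproteins. Its levels ran from 90.8 to 208 CPM in SykY317F DZ, against 33.9 to 87.8 CPM in SykY317F LZ, and from 177 to 259 CPM in WT DZ, against 48.4 to 82.5 CPM in WT LZ. In SykY317F the gap was narrow, the lowest DZ library being 1.03 times the highest LZ library, while in WT that ratio was 2.15. Zone differences were 1.52 ± 0.37 in SykY317F and 1.66 ± 0.28 in WT. Of other lipases, Lipa of lysosomes (-0.48 ± 0.44), the hormone-sensitive lipase Lipe (-0.50 ± 0.27) and Pnpla2 of lipid droplets (0.33 ± 0.21) did not pass.

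Smco4 (chromosome 9, 15493432 to 15545260, plus strand) encodes a small single-pass membrane protein with a coiled-coil domain. It ran from 76.0 to 121 CPM in SykY317F DZ, against 22.6 to 56.5 CPM in SykY317F LZ, and from 89.0 to 149 CPM in WT DZ, against 28.7 to 52.5 CPM in WT LZ. Zones did not overlap, and the differences were 1.27 ± 0.37 in SykY317F and 1.46 ± 0.27 in WT.

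Scn11a (chromosome 9, 119753759 to 119825456, minus strand) encodes the pore-forming subunit of the sodium channel Nav1.9 of pain-sensing neurons, and was the gene with the most complete restriction. It had 17, 16 and 12 UMIs in SykY317F DZ, against 0 UMIs in each of the 3 SykY317F LZ libraries. In WT DZ it had 9, 20, 24 and 35 UMIs, against 1, 0, 0 and 1 in WT LZ. Scaled to depth, its level was at least 3.12-fold higher in SykY317F DZ than in SykY317F LZ, taking 3 UMIs over the LZ group as the most that a count of 0 allows. In WT the ratio of DZ to LZ was 38.05 (95% exact binomial interval 10.2 to 319, counting error only). The bound in SykY317F is low because its LZ libraries were the shallowest. Of 12 other sodium channel genes sought, Scn4a was in the table, with an averaged zone difference of -0.09 ± 0.39.

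Guca1b (chromosome 17, 47385393 to 47392967, plus strand), a calcium sensor of photoreceptors that regulates guanylyl cyclase, was also counted in few molecules. It had 29, 20 and 7 UMIs in SykY317F DZ, against 1, 0 and 0 in SykY317F LZ, a ratio of 11.7 after scaling to depth with an exact binomial 95% interval of 2.01 to 469. In WT DZ it had 17, 27, 39 and 57 UMIs, against 8, 3, 7 and 5 in WT LZ, and the zone difference was 2.17 ± 0.49. DZ and LZ libraries did not overlap within either genotype, but the lowest DZ library of all (13.45 CPM) barely cleared the highest LZ library (13.44 CPM). Among related calcium sensors, Hpcal1 differed by 0.35 ± 0.43.

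**Figure D1:**
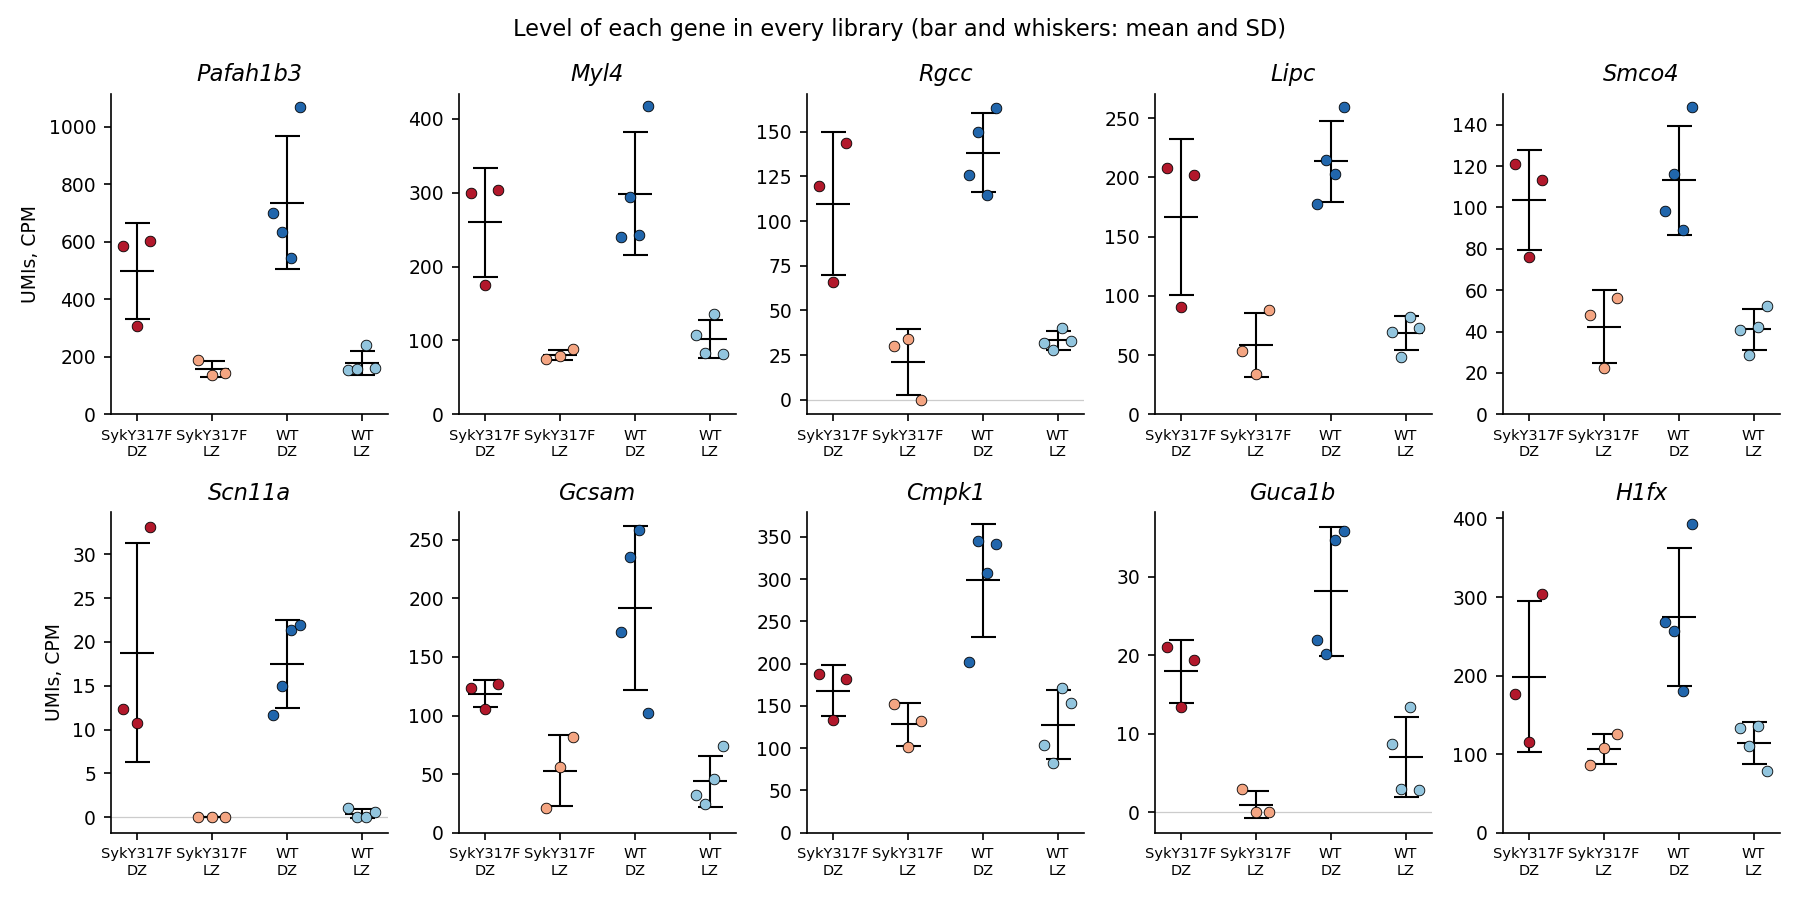
Level of each of the 10 genes in every library, in CPM (UMI counts scaled to a common library total) on a linear axis from 0; points are libraries and the bars with whiskers are group means and SD (n = 3 for each SykY317F group, n = 4 for each WT group). DZ points stand above LZ points of the same genotype for all genes in WT and for all but Cmpk1 and H1fx in SykY317F, and the lowest SykY317F DZ point is replicate 2 in each panel.

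Gcsam (chromosome 16, 45610380 to 45622867, plus strand), the germinal centre adaptor that binds Syk, had a spread of its own. Its levels were 123, 106 and 127 CPM in SykY317F DZ, against 20.9, 56.5 and 81.5 CPM in SykY317F LZ. WT DZ held 171, 235, 258 and 102 CPM, against 31.8, 24.7, 46.1 and 73.9 CPM in WT LZ. Replicate 5 was the lowest of the WT DZ libraries for this gene, although it was the highest for 8 of the other genes. The zone difference was 1.28 ± 0.49 in SykY317F and 2.09 ± 0.36 in WT. Of genes that act at the antigen receptor, 9 were tested and none passed. Averaged differences were 0.35 ± 0.15 for Syk, 0.20 ± 0.16 for Lyn, -0.01 ± 0.23 for Btk, 0.58 ± 0.18 for Blnk, -0.33 ± 0.16 for Cd79a, 0.23 ± 0.17 for Cd79b, -0.15 ± 0.15 for Plcg2, -0.41 ± 0.18 for Lat2 and -0.15 ± 0.17 for Grb2. Syk averaged 547 ± 68.9 CPM in SykY317F DZ, 414 ± 27.0 CPM in SykY317F LZ, 517 ± 57.6 CPM in WT DZ and 422 ± 61.4 CPM in WT LZ (SD, n = 3, 3, 4 and 4), and its level does not check a point mutation.

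Cmpk1 (chromosome 4, 114959336 to 114987241, minus strand) encodes the kinase that phosphorylates UMP and CMP on the way to nucleotides for RNA and DNA. It measured 188, 134 and 182 CPM in SykY317F DZ, against 152, 102 and 132 CPM in SykY317F LZ, so the zones overlapped. In WT DZ it measured 202, 345, 307 and 341 CPM, against 104, 83.0, 171 and 154 CPM in WT LZ, with no overlap. Zone differences were 0.36 ± 0.31 in SykY317F, the smallest of the 10 genes, and 1.23 ± 0.25 in WT. Other nucleotide kinases, Dtymk (0.10 ± 0.22), Guk1 (-0.15 ± 0.32), Ak3 (0.84 ± 0.41) and Ak6 (0.19 ± 0.27), did not pass.

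H1fx (chromosome 6, 87980421 to 87981637, minus strand) encodes the linker histone H1X. Its levels were 176, 116 and 304 CPM in SykY317F DZ, against 86.6, 107 and 125 CPM in SykY317F LZ, where the DZ replicate 2 library fell below the highest LZ library. In WT DZ they were 268, 257, 181 and 392.5 CPM, against 133, 111, 136 and 78.5 CPM in WT LZ, with no overlap. The zone difference was 0.89 ± 0.37 in SykY317F and 1.27 ± 0.29 in WT. The antisense gene Gm5577 overlaps H1fx, and the counting setting for strand is not given in the sources used here; Gm5577 held 11 UMIs in SykY317F DZ, 1 in SykY317F LZ, 6 in WT DZ and 13 in WT LZ, against 525, 68, 1380 and 440 for H1fx. Of the other linker histones, Hist1h1e differed by 0.92 ± 0.50, while Hist1h1b (-0.07 ± 0.73), Hist1h1c (-0.02 ± 0.91), Hist1h1d (-0.33 ± 0.63) and H1f0 (0.03 ± 0.43) were near 0 or below, with wide errors, and none passed.

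**Figure D2:**
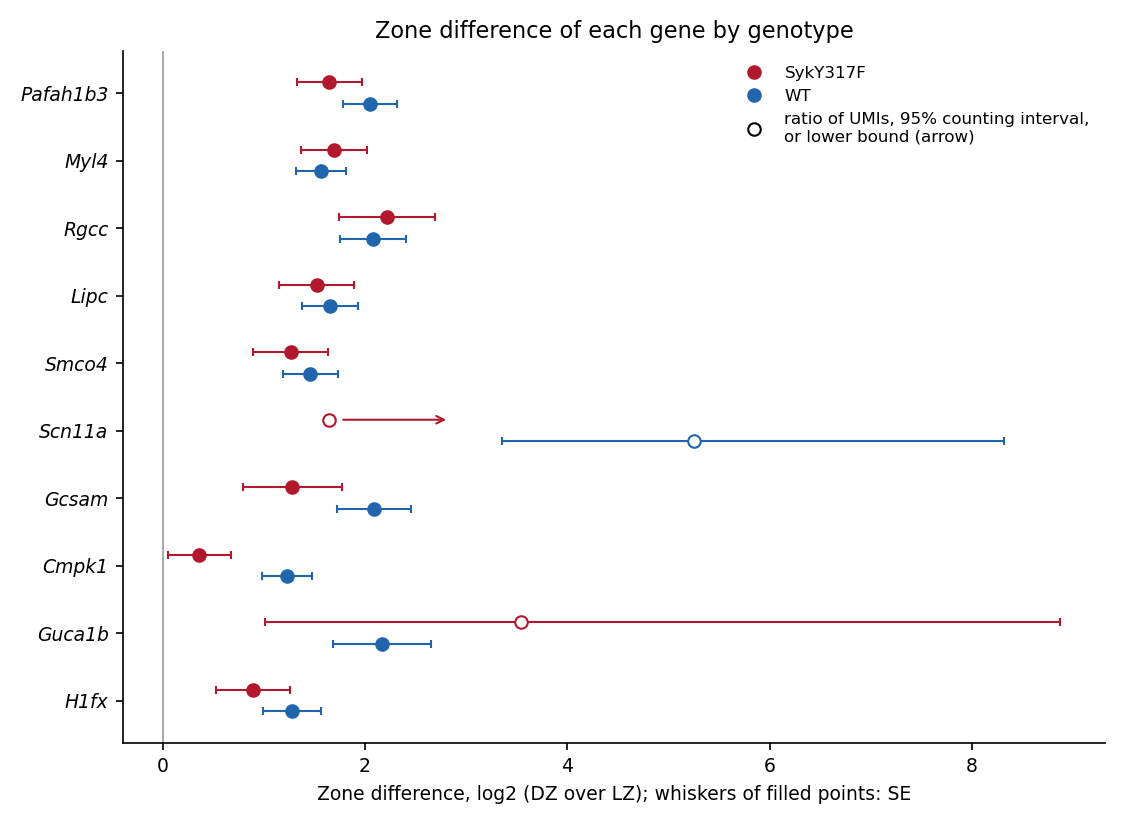
Zone difference (log2, DZ over LZ) of each gene in SykY317F and in WT. Filled points are edgeR fits with SE whiskers; open points are ratios of summed UMIs with a 95% counting interval, or a lower bound with an arrow, where a group held 3 UMIs or fewer. Values lie to the right of 0 for all 10 genes in both genotypes, from 0.36 for Cmpk1 in SykY317F upwards.

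In WT, 10 of 10 genes had every DZ library above every LZ library, where 2.88% of the 7999 tested genes did. In SykY317F this held for 8 of 10 genes (background 8.5%), the exceptions being Cmpk1 and H1fx. Over both genotypes, all 7 DZ libraries stood above all 7 LZ libraries for 8 of the 10, which are among 26 genes (0.325%) with that property. Scn11a had the widest gap of those 26, its lowest DZ library being 9.81 times its highest LZ library, ahead of Bzrap1 (1.78 times) and Rgcc (1.64 times); Bzrap1 was named after its value was seen.

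By the quasi-likelihood test in edgeR with Benjamini-Hochberg adjustment at 0.05, 8 of 10 genes were called higher in DZ in WT, beside 11 of 7999 genes in all (0.138%; 15 in either direction, 0.188%). In SykY317F 0 of 10 were called, beside 2 genes in all (0.025%, or 3 in either direction, 0.0375%). The unadjusted p in edgeR was under 0.05 for 9 of 10 there, as for 10.3% of all genes in either direction. DESeq2 called 4 of 10 there, beside 42 genes in either direction. Without SykY317F DZ replicate 2, edgeR called 4 of the 10 in SykY317F, beside 10 genes in either direction. The median zone difference of the 10 there was 1.88, against 1.58 with all libraries. Leaving out WT LZ replicate 2 took the WT count to 1 of 10, and that of all genes from 15 to 1. The median difference of the 10 in WT stayed within 1.66 to 1.92 whichever library was left out. Averaged over genotypes, 10 of 10 were called, beside 70 genes (0.875%; 114 in either direction, 1.43%). These counts come from the contrasts that chose the genes, and nothing is read from them. Markers of myeloid cells, 8 of 8 in the table, also ran higher in SykY317F DZ: they summed to 262 to 545 CPM there, against 47.8 to 113 CPM in SykY317F LZ, and to 91.9 to 389 CPM in WT DZ, against 57.6 to 161 CPM in WT LZ. Their part in the zone values was not tested.

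In the authors' deposited table the adjusted p was under 0.05 for 10 of 10 genes in WT, beside 78 of 9969 genes (0.782%), and for 3 of 10 in SykY317F, beside 22 genes (0.221%), and this count too rests on the values that chose the genes. The median zone difference of the 10 genes was 1.58 in SykY317F and 1.85 in WT, against 0.04 and 0.02 over all tested genes in the same comparisons. Besides these genes, A630023P12Rik (2.14 ± 0.33), Hmces (1.44 ± 0.29), which shields abasic sites in DNA, and Gadd45b (1.01 ± 0.20), a stress-induced growth arrest gene, were the ones called higher in DZ in WT.

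**Figure D3:**
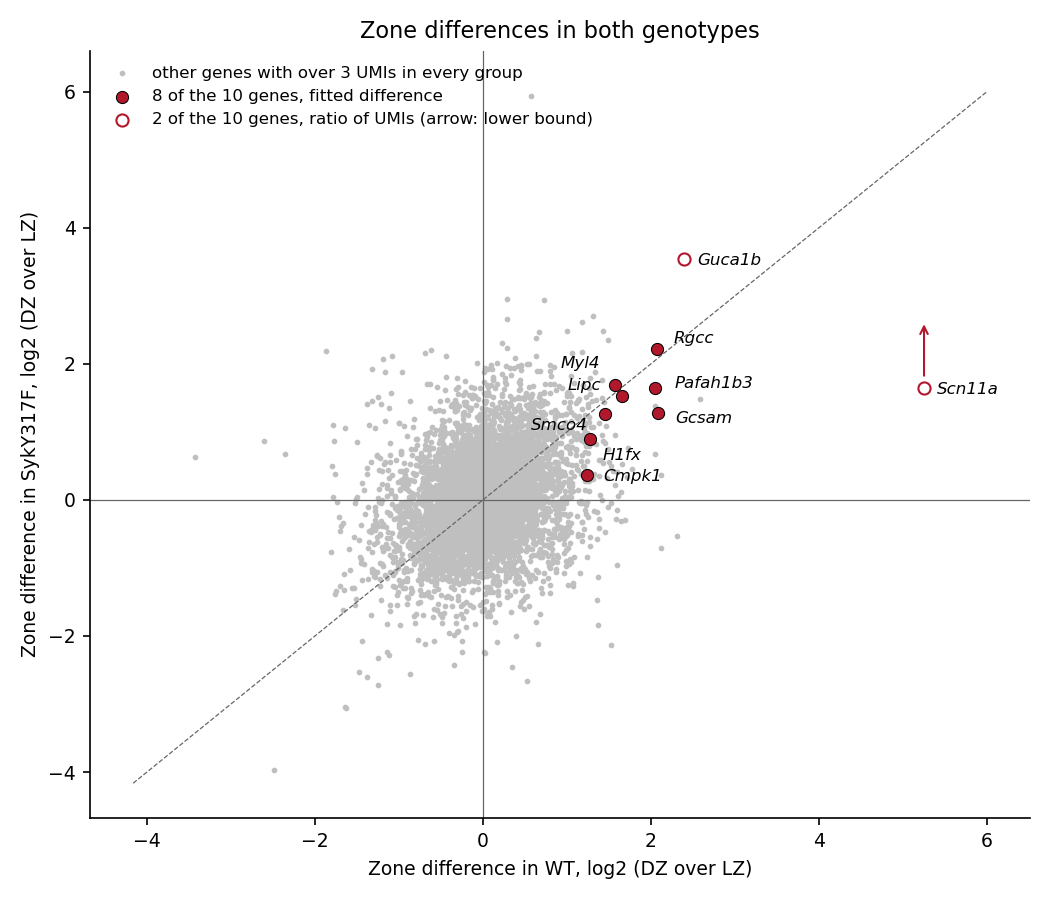
Zone difference in WT (horizontal) and in SykY317F (vertical), log2, DZ over LZ, for the 7494 tested genes with over 3 UMIs in every group; the dashed line marks equal differences, and the 2 open points are UMI ratios, with an arrow where the value is a lower bound. The comparisons use separate libraries; the 10 genes lie at the upper right, with Cmpk1 closest to 0 on the vertical axis and Scn11a farthest out on the horizontal one.

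A list of other dark zone genes was set beside the 10. Like the light zone and cell cycle lists below, it was chosen with earlier results of these data known. Counts from all of these lists are therefore a description, and nothing is read from them. 17 of 18 in the list passed the filter, and all 17 had an averaged zone difference above 0, as 53.7% of all tested genes did. Of these, 5 were called higher in DZ (0.875% of all genes): Hmces (1.44 ± 0.23), Pou2af1 (1.02 ± 0.21), a B cell coactivator, and the mitotic genes Ccnb2 (1.90 ± 0.34), Cdc20 (1.40 ± 0.24) and Cenpa (0.87 ± 0.18). The list's median was 0.79 (0.61 with Bub1 at its bound), against 0.03 over all genes. Bub1, a mitotic checkpoint kinase, had 18 UMIs in SykY317F DZ and 0 in SykY317F LZ, at least 1.25-fold higher in DZ. Cxcr4 differed by -0.23 ± 0.35 in SykY317F and by 0.62 ± 0.30 in WT, and passed in neither. Of 16 light zone genes tested, 6 were called lower in DZ (0.55% of all genes), and 1 of the 16 had a value above 0. Among those called were Cd72 (-1.03 ± 0.18), Cd83 (-1.0 ± 0.18) and Ccr6 (-1.37 ± 0.29). Cd86 (-0.97 ± 0.39) did not pass in edgeR (adjusted p = 0.264).

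Cell cycle genes lay mostly on the same side of 0. All 18 tested genes of G2 and mitosis, 9 of which are also in the dark zone list, had an averaged difference above 0 (53.7% of all tested genes). Their median was 0.69 (0.60 with Bub1 at its bound), and 4 were called (0.875% of all genes): Ube2c (1.31 ± 0.25) and, from the dark zone list, Ccnb2, Cdc20 and Cenpa. Of 16 S phase genes 15 were above 0, with a median of 0.34, and 0 were called by edgeR, the largest by size being Pola1 (1.12 ± 0.39) and Rfc4 (1.09 ± 0.29). By genotype, 18 of the 18 G2 genes were above 0 in SykY317F and 11 in WT, against 53.3% and 51.7% of all tested genes. Zone differences of the G2 genes had a median of 0.89 in SykY317F (0.84 with Bub1 at its bound) and 0.21 in WT. The difference between the genotypes was not tested.

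No genotype difference of the 10 genes passed the test. Averaged over zones (SykY317F over WT), the 8 genes with over 3 UMIs in every group had log2 differences from -0.44 ± 0.29 for Rgcc to -0.05 ± 0.23 for Smco4. Cmpk1 (-0.40 ± 0.20) and Pafah1b3 (-0.37 ± 0.21) had the smallest adjusted p of these 8 in edgeR, 0.510 and 0.560. 0 of 10 genes were called by edgeR, as were 0 of 7999 (0%), with an unadjusted p under 0.05 for 1 of the 10, Guca1b, and for 804 genes (10.1%). DESeq2 called 47 genes, limma voom 7 and edgeR on read counts 10, with 0 of the 10 among them.

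All 8 values lay below 0, with a median of -0.31, against -0.03 over the 7494 tested genes with over 3 UMIs in every group, although Smco4 came out above 0 with voom, thinning or the replicate block (0.107), and Gcsam on read counts (0.081). This direction cannot be told apart from the choice of the genes. The same libraries enter both comparisons, and depth was lowest in SykY317F LZ. By arithmetic, a low value in SykY317F LZ or a high value in WT DZ raises the zone difference and lowers the genotype difference. A high value in SykY317F DZ or a low value in WT LZ raises both. Which of these bears on the sign was not tested. Of the other genes with over 3 UMIs in every group, 169 were at least 1 log2 unit higher in DZ, averaged over genotypes. Their median genotype difference was -0.57, and 88.8% were below 0. By zone, the 8 genes had genotype differences from -0.84 to -0.14 in DZ (median -0.44) and from -0.51 to 0.11 in LZ (median -0.14). In DZ all SykY317F libraries were below all WT libraries for 1 of 10 genes, Cmpk1 (-0.84 ± 0.27; 134 to 188 CPM against 202 to 345 CPM; background 2.31%), and in LZ for 0 of 10 (background 6.66%).

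Zone differences were compared between genotypes by their own contrast (SykY317F minus WT), which shares the choice and is given without a test. Cmpk1 had -0.87 ± 0.40 and Gcsam -0.81 ± 0.62, and the other 6 of the 8 ran between -0.40 and 0.14. The 7 markers of naive or memory B cells, which include Ccr6 and Fcer2a of the light zone list, lay on the other side. Averaged over zones, 7 of 7 had a genotype difference above 0, as 44.7% of all tested genes did. The median of the markers was 0.93 log2 units, against -0.05 over all tested genes, and none of the markers passed. Their summed level was 1169 to 2031 CPM in SykY317F DZ, 1880 to 2258 in SykY317F LZ, 545 to 1024 in WT DZ and 896 to 1945 in WT LZ. T cell markers, given above, were also higher in every SykY317F DZ library than in any WT DZ library. The part of either in the genotype values was not tested.

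**Figure D4:**
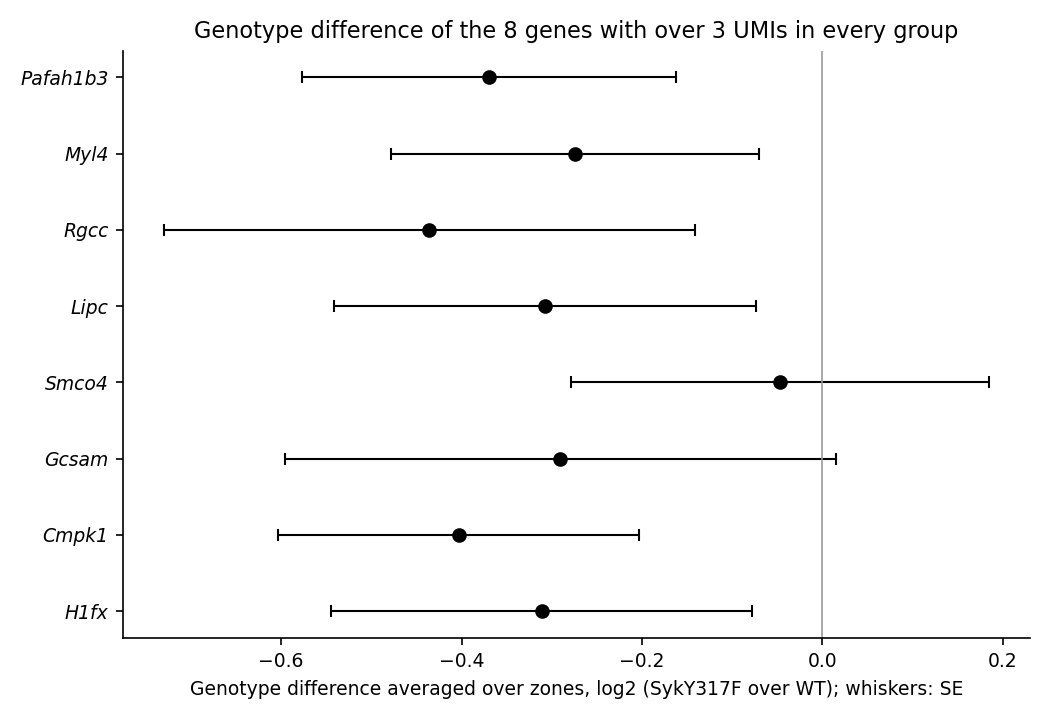
Genotype difference averaged over zones (log2, SykY317F over WT) for the 8 genes with over 3 UMIs in every group; points are edgeR fits and whiskers SE. All points lie below 0, none passed the test across all genes, and the common sign cannot be told apart from the choice of the genes.

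The 10 genes were then compared with each other across libraries, as a description. Log2 CPM of pairs of genes correlated with a median Pearson r of 0.808 (0.506 to 0.971, 45 pairs, 14 libraries), a value that the choice of the genes by zone raises. After subtraction of each group's mean, 38 of 45 pairs were still above 0, with a median of 0.325. Lipc and Smco4 had the highest value (0.875), followed by Pafah1b3 with Myl4 (0.831) and Myl4 with H1fx (0.823); these pairs share libraries and their depth. Within groups, 8 genes had r from 0.471 to 0.837 with the mean of the other 9, and Gcsam had -0.141 (-0.331 to 0.095 when 1 library was left out). The value for Rgcc, 0.00461, rests on SykY317F LZ replicate 4, in which Rgcc had 0 UMIs, and was 0.876 without that library. Besides the low SykY317F DZ replicate 2, WT DZ replicate 5 was the highest of its group for 8 of the 10 genes and WT LZ replicate 3 for 7.

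**Figure D5:**
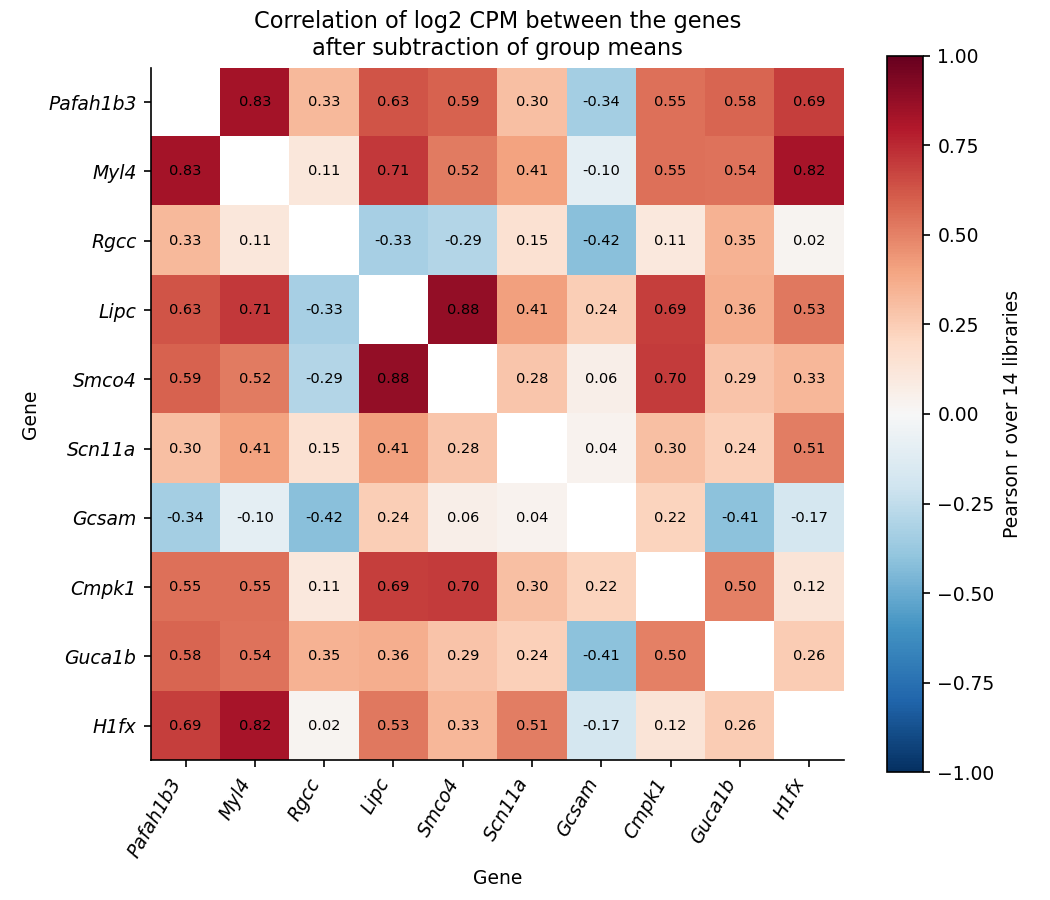
Pearson r of log2 CPM between the 10 genes over 14 libraries after subtraction of group means; red is positive and blue negative. The pairs Lipc and Smco4, Pafah1b3 and Myl4, and Myl4 and H1fx are the highest, and the Gcsam row holds 5 of the negative values; values of Rgcc rest on 1 SykY317F LZ library in which it had 0 UMIs.

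Summed over the 10 genes, levels were 1853, 1092 and 2032 CPM in SykY317F DZ, against 657, 570.1 and 715 CPM in SykY317F LZ. In WT they were 2014, 2282, 1992 and 2950 CPM in DZ, against 682, 565, 909.8 and 710.2 CPM in LZ. The zones did not overlap in either genotype. Of all other genes, those whose level followed the mean of the 10 most closely over 14 libraries were Hmces (r = 0.938), Csrp2 (0.935), Anxa2 (0.924), Cenpa (0.915) and Lrrc49 (0.911). With group means subtracted they were Ucp2 (0.950), Cox7a2l (0.947), H2afz (0.927), the predicted gene Gm4737 (0.925) and Ada (0.917), none of which is in the first set. In the same order, the averaged zone differences of this second set were -0.47 ± 0.21, 0.19 ± 0.16, 0.35 ± 0.26, 0.05 ± 0.40 and 1.02 ± 0.245. Both sets hold the highest values among all other tested genes, and that choice by itself raises r.

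Position was the last feature compared. Lipc, Smco4 and Scn11a lie on chromosome 9, far apart, and the other 7 genes each on a chromosome of their own. On each side of the 10, the nearest gene that was tested and did not overlap was taken, 43 bases (Cdc27) to 2746865 bases (Chordc1) away. These neighbours had averaged zone differences with a median of 0.08. Of the 20, 2 were called (1.43% of all genes in either direction): Hmces (1.44 ± 0.23), 43792 bases from H1fx, and Itgb3 (0.92 ± 0.22), an integrin chain, 12247 bases from Myl4. The others ran from -0.50 to 2.07, the highest being Cep295, with an error of 0.89, and did not pass.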

How the data were processed

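Counts per gene symbol in 14 libraries were used as deposited: UMI counts for 9969 genes, and read counts for 11913 genes after 1 repeated symbol was dropped. Tools listed in the submitters' processing notes, without their roles, are STAR 2.4.2a, cutadapt, HTSeq, DESeq and DESeq2, with the build mm10; how reads were assigned to genes is not stated there. The authors also deposited log2 fold changes (LZ over DZ) and adjusted p-values, used for counts of calls. 28 other columns of per-sample values were not used.

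Genes were filtered with filterByExpr (7999 left, 99.3% of UMIs), scaled by TMM and fitted by quasi-likelihood in edgeR 4.0.16 (R 4.3.3) with the 4 groups (common biological coefficient of variation 32.3%). Adjusted p-values are Benjamini-Hochberg over all tested genes, with a threshold of 0.05. Log2 CPM used a prior count of 2. A group with 0 UMIs got a floor of 3 UMIs over the group; groups of 1 to 3 UMIs got a ratio with an exact binomial 95% interval. Floors and intervals cover counting error only. None of the 18 pairs of libraries within a group agreed within sampling noise. Steps were tested on simulated counts. Alternatives were DESeq2 1.42.0 (size factors, Wald test), library size scaling, limma 3.58.1 voom, other filters, a replicate block, read counts, thinning to 149641 UMIs (21 draws), and leaving out libraries; leaving out libraries in the correlations was added after seeing the data. Coordinates are those of the GRCm38 annotation.

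The 10 genes and the lists were chosen with earlier results of these data known. Named are the 10, up to 7 tested members of each family, and the 2 of each list with the largest difference and its called genes. Also named are the 5 and 5 most alike, Syk, the other genes called in WT and the nearest neighbours. Cxcr4, Cd86 and Bzrap1 were named beside these. Some genes of the lists are not reported here by name.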

Additional observations from a re-analysis of the deposited data

Results flagged for a closer look

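In WT LZ replicate 3, Pafah1b3 measured 241.8 CPM, against 154.7 to 161.1 CPM in the other 3 WT LZ libraries, a gap to the nearest library of 0.927 of the group's range. In the same library the 8 myeloid markers summed to 57.58 CPM, against 153.0 to 161.3 CPM in the others. These were 2 of 34 sets of 4 libraries examined, where chance gives about 1 in 20.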

How the results depend on the processing

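Every zone difference of the 10 genes kept its direction under each alternative, except H1fx in SykY317F, which was -0.000179 on read counts. Counts of calls moved more than sizes, and the cause was not tested. In WT (8 of the 10 and 15 genes in all), read counts gave 0 and 0, and thinning gave 4 and 12. DESeq2's test gave 97 genes there and voom 292. Leaving out the 2 shallowest libraries, SykY317F LZ replicates 2 and 4, gave 9 genes. In SykY317F (0 of the 10 and 3 genes), library size scaling gave 3 and 9, DESeq2 4 and 42, read counts 1 and 20, thinning 2 and 5, and leaving out the 2 shallowest 0 genes. Averaged over genotypes (10 of the 10 and 114 genes), leaving out the 2 shallowest gave 6 and 17, DESeq2 235 genes, voom 200, read counts 49 and thinning 66. For genotype (0 genes), DESeq2 gave 47, voom 7 and read counts 10.

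Leaving out 1 library gave 1 to 9 of the 10 and 1 to 26 genes in WT. Without WT LZ replicate 2 it was 1 of the 10 and 1 gene in all. Without WT DZ replicate 3 it was 5 and 6, and without WT LZ replicate 1 it was 5 and 7. In SykY317F, leaving out 1 library gave 0 to 4 of the 10 and 0 to 10 genes (4 and 10 without SykY317F DZ replicate 2). Averaged over genotypes it gave 8 to 10 of the 10 and 42 to 152 genes, and for genotype 0 to 5 genes. Medians ran from 1.664 to 1.924 in WT, 1.407 to 1.878 in SykY317F, 1.582 to 1.794 averaged and -0.447 to -0.2501 for genotype. Among genotype differences, Smco4 turned to 0.042 with voom, 0.107 with the replicate block, 0.050 without the 2 shallowest, 0.146 with thinning and -0.148 to 0.078 without 1 library (above 0 without SykY317F DZ 2, SykY317F LZ 2, WT DZ 5 or WT LZ 5). Gcsam turned to 0.081 on read counts, and Scn11a, with 0 UMIs in SykY317F LZ, to 0.403 with DESeq2 and 0.62 with voom. Library size scaling moved the median of all genes in SykY317F to 0.187, against 0.0425 with TMM.

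Same-numbered libraries of a genotype had correlations of -0.555 to 0.215 over 6 pairs, with a median of 0.10. Those of different genotypes had -0.173 to 0.306 over 8 pairs, with a median of 0.15. Numbers were not taken to pair libraries in the main fit, and 5 of 12 correlated best with their own number. Whether a number marks a shared host is not in the labels, and these values do not settle it. Replicate 2 had the highest sum of naive or memory B cell markers in every group. With the replicate block, 7 of the 10 and 14 genes were called in WT, 0 and 1 in SykY317F, 9 and 94 averaged, and 0 and 0 for genotype. Depth limits the low genes of SykY317F LZ.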
